A study of Homo sapiens with 6 samples.

Results

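Immune checkpoint ligands and adenosine ectoenzymes are proteins, mostly of the cell surface, with which a tumour cell restrains T cells, natural killer cells and macrophages. The genes described here are 10 members of that group: CD274, PDCD1LG2, CD276, VTCN1, CD47, NT5E, ENTPD1, PVR, NECTIN2 and LGALS9. They were chosen by function and found by gene symbol among the 25706 rows of the deposited gene table, where each symbol had 1 row. Polyadenylated RNA was sequenced from MDA-MB-231, an established human triple-negative breast cancer line with a mesenchymal appearance. One group of 3 libraries came from MDA-MB-231 cells overexpressing tsRNA-Gly-5-0006, a fragment of a glycine tRNA, and the other group of 3 came from MDA-MB-231 control cells. What the control cells carry, how the fragment was overexpressed, and whether replicates were separate cultures are not given in the sources used here. If they were not separate, the p-values measure only the spread between these libraries. Small RNA was not measured, so the level of the fragment itself was not checked.

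The group works through pairs of ligand and receptor. PD-L1 (CD274) and PD-L2 (PDCD1LG2) bind PD-1 on T cells and dampen their activation, and B7-H3 (CD276) and B7-H4 (VTCN1) are relatives in the B7 family that are also studied as inhibitory ligands in carcinoma. CD47 binds SIRPα on macrophages and restrains phagocytosis, while PVR and NECTIN2 bind the inhibitory receptor TIGIT and the activating receptor CD226 on T and natural killer cells. Galectin-9 (LGALS9) binds TIM-3. CD39 (ENTPD1) converts extracellular ATP to AMP, and CD73 (NT5E) converts AMP to adenosine, which suppresses lymphocytes through its own receptors.

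In both groups the ligands of TIGIT, the AMP-converting enzyme and B7-H3 were well expressed. Both PD-1 ligands were low, with 22.9% (CD274) and 21.8% (PDCD1LG2) of tested genes at a lower mean FPKM. CD39 and B7-H4 were near the lower end of the measured range. None of the 9 members that could be tested passed the test between groups. VTCN1 was left out of the test by the filter on low counts. The smallest unadjusted p of the 9 was 0.203 (edgeR), and the adjusted p was 0.99985 for each of them. The background over all 15951 genes tested with edgeR was the same, with 0 genes (0%) past an adjusted p of 0.05. DESeq2 passed 14 genes, 0 of them members. An unadjusted p under 0.05 was reached by 3.83% of all tested genes and by 0 of the 9 members. The groups did not overlap in FPKM for 8.22% of all tested genes and for 0 of the 9. The median log2 fold change (overexpression over control) was 0.11 for the 9 members and 0.02 for all tested genes. Without overexpression 1 these medians were 0.01 and 0.01. A log2 fold change above 0 was found for 6 of the 9 members beside 54.8% of all tested genes. Without overexpression 1 it was found for 6 of the 9 beside 51.6%, but these were not the same 6. CD274 and CD47 turned negative without overexpression 1, and PVR and NECTIN2 turned positive. Leaving out that library, 0 of the 9 passed (background 0.0247%) and 0 had an unadjusted p under 0.05 (background 2.89%). Over all 6 libraries with an offset for GC content, 0 of the 9 had an unadjusted p under 0.05, against 3.62% of all tested genes.

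Overexpression 1 stood apart from the other libraries in its trend with GC content and in fibroblast markers, as given below. The difference of each tested member is therefore given with and without it. Deposited counts summed to between 54371226 and 74586916 per library. The deviation of a library is how far a gene's log2 CPM (its count scaled to the TMM-adjusted library total) lies from the average of the remaining 5. Its absolute size over all tested genes had a median of 0.2561 in overexpression 1 and 0.2529 in overexpression 3. In the other libraries that median was 0.1517 to 0.2014. In overexpression 1 this deviation had a median of 0.64 for the 2096 tested genes with a GC content under 40%. For the 2469 genes with a GC content of 60% or more that median was -0.10. In control 1 the corresponding medians were -0.31 and 0.04. In overexpression 3, which stays in when overexpression 1 is left out, they were -0.17 and 0.15. Of 13 fibroblast marker genes measured, 12 were highest in overexpression 1. Among the 9 of them that were tested, 8 were highest there, beside 30.9% of all tested genes. FBLN1 was highest in overexpression 2, and PDGFRB had 0.5505 to 0.9329 FPKM over the 6 libraries. Together the 13 summed to 151 CPM in overexpression 1 and to at most 15.7 CPM in each of the other 5 libraries. COL3A1, DCN and FAP were listed at 0 in those 5 and had 1.804, 0.04959 and 0.09113 FPKM in overexpression 1. COL1A1, a chain of type I collagen, had 4.695 FPKM there and 0.06274 to 0.1822 FPKM elsewhere.

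The markers fixed for the line were present in part. VIM, CD44, AXL, CAV1, MSN, LGALS1 and S100A4 were between 17.2 and 2933 FPKM in every library. EGFR, usually described as high in these cells, had 0.58 to 0.849 FPKM. Among markers listed as low, PGR and CDKN2A were at 0 in 5 of the 6 libraries, and CDH1 had at most 0.04244 FPKM. EPCAM had 0.08982 to 0.2831 FPKM and GATA3 had 0.5275 to 0.9092 FPKM. ERBB2 was detected in every library at 5.117 to 6.391 FPKM, and KRT8 had 555.8 to 656.0 FPKM. Of 11 leukocyte and endothelial markers measured, 9 stayed under 0.5 FPKM in every library, PTPRC (CD45) among them with at most 0.00549 FPKM. The exceptions were CD14, with 13.05 to 16.7 FPKM, and CSF1R, with 1.445 to 1.737 FPKM. PDCD1, TIGIT and HAVCR2, which encode the receptors PD-1, TIGIT and TIM-3, were not analysed here, and CTLA4 and LAG3 had at most 0.0264 and 0.06333 FPKM.

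**Figure D1:**
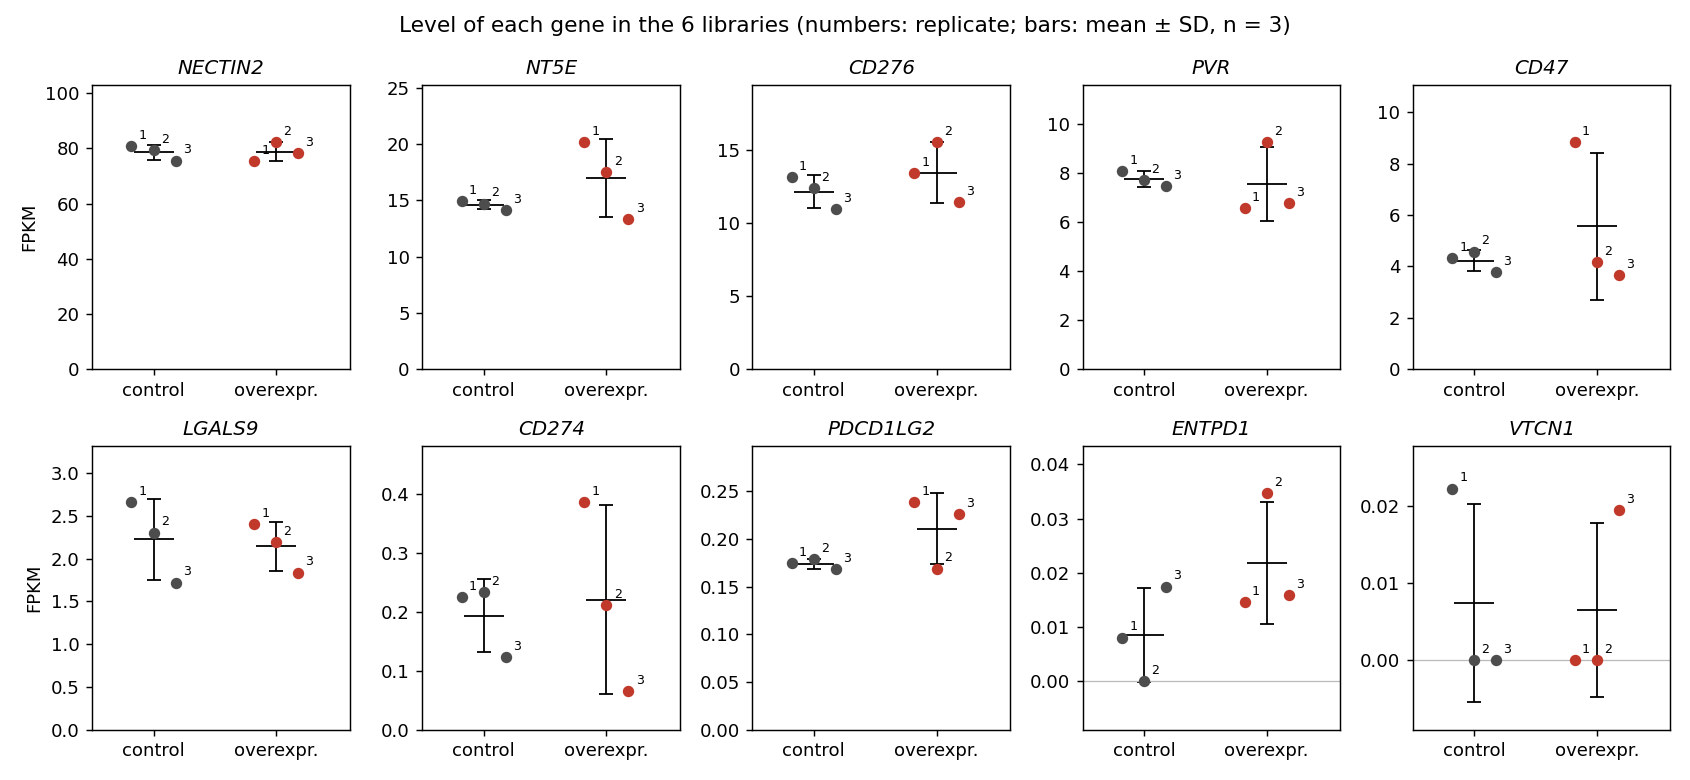
FPKM of each of the 10 genes (vertical axis, its own scale per panel) in the 3 control and 3 overexpression libraries, ordered by mean level. Points are libraries with their replicate number, and horizontal marks with bars are the mean ± SD (n = 3). Overexpression 1 is the highest point for CD47 (8.852 FPKM), NT5E, CD274 and PDCD1LG2, and the groups overlap in every panel.

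FPKM (fragments scaled to transcript length and to the mapped fragments of a library) allows levels to be compared between genes of different length. It is not scaled to GC content. Over all tested genes its median was 0.3947 under 40% GC and 4.849 at 60% or more. What part GC content has in the order below was not tested. By mean FPKM over the 6 libraries the order was NECTIN2 (78.63), NT5E (15.82), CD276 (12.81), PVR (7.651), CD47 (4.887), LGALS9 (2.185), CD274 (0.2071), PDCD1LG2 (0.1925), ENTPD1 (0.01512) and VTCN1 (0.006981). Ranges over the libraries did not overlap between NECTIN2 and NT5E, CD276 and PVR, CD47 and LGALS9, LGALS9 and CD274, or PDCD1LG2 and ENTPD1. NT5E and CD276 overlapped in range, yet NT5E was the higher in each of the 6 libraries. PVR was above CD47 in 5 of the 6, the exception being overexpression 1. CD274 was above PDCD1LG2 in 4 of the 6, and ENTPD1 and VTCN1 could not be ordered. NECTIN2 alone made up 59.2% to 67.7% of the summed FPKM of the 10 genes in a library.

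CD274 encodes PD-L1 (ENSG00000120217, hg38 chromosome 9, 5450503 to 5470566). The line is in wide use as a PD-L1-positive model, and its CD274 row was low: 22.9% of tested genes had a lower mean FPKM. CD274 had 0.2246, 0.2335 and 0.1231 FPKM in control 1, 2 and 3, and 0.3857, 0.2108 and 0.06502 FPKM in overexpression 1, 2 and 3. The highest and the lowest library both belonged to the overexpression group, and all 3 controls lay between them. These values rest on 23 to 127 deposited counts. The group means were 0.194 ± 0.0613 and 0.221 ± 0.161 FPKM (SD, n = 3 each), with a log2 fold change of 0.11 (SE 0.55, unadjusted p 0.849 by edgeR). The 95% confidence interval ran from 0.444-fold to 2.61-fold. Without overexpression 1 the log2 fold change turned to -0.53 (SE 0.51). It was also negative without control 3 (-0.11), and over all 6 libraries with an offset for GC content (-0.11) or a block for replicate numbers (-0.10).

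PDCD1LG2 encodes PD-L2 and lies next to CD274 (ENSG00000197646, chromosome 9, 5510531 to 5571282). It had 0.1748, 0.1788 and 0.1683 FPKM in control 1, 2 and 3, a spread of 3.04% of their mean. In overexpression 1, 2 and 3 it had 0.2383, 0.1689 and 0.2257 FPKM. Overexpression 1 and 3 lay above all controls and overexpression 2 among them. A log2 fold change of 0.23 came from edgeR (SE 0.33; p 0.51 before adjustment), or 0.16 (SE 0.46) without overexpression 1. An unnamed antisense long non-coding RNA, ENSG00000286162, spans the later part of CD274 and all of PDCD1LG2 on the other strand. It had 12 to 40 counts per library, against 26 to 46 for PDCD1LG2. Since the counting strand is not given in the sources used here, reads of these low rows cannot be told apart.

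CD276 encodes B7-H3 (ENSG00000103855, chromosome 15, 73683966 to 73714514) and was the B7 family member with the highest level. Controls 1, 2 and 3 had 13.12, 12.39 and 10.95 FPKM, and overexpression 1, 2 and 3 had 13.40, 15.57 and 11.41 FPKM. Overexpression 1 and 2 were above every control, and overexpression 3 lay within the control range. EdgeR gave a log2 fold change of 0.10 with an SE of 0.10 (unadjusted p 0.381), with a 95% confidence interval of 0.903-fold to 1.27-fold. Without overexpression 1 it was 0.11 (SE 0.12).

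VTCN1 encodes B7-H4 (ENSG00000134258, chromosome 1, 117143587 to 117210960). Control 1 had 0.02232 FPKM and overexpression 3 had 0.01957 FPKM, each from 5 counts, and VTCN1 was listed at 0 in the other 4 libraries. Its level was thus at the limit of detection in both groups.

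CD47, the signal to macrophages (ENSG00000196776, chromosome 3, 108043091 to 108091862), varied most among the members above 1 FPKM. Controls 1, 2 and 3 had 4.306, 4.571 and 3.765 FPKM. Overexpression 1 had 8.852 FPKM, whereas overexpression 2 and 3 had 4.164 and 3.663 FPKM, one within and one just below the control range. Overexpression 1 thus held 2.16 times the mean of the other 5 libraries. The group means were 4.21 ± 0.411 and 5.56 ± 2.86 FPKM (SD, n = 3 each). A log2 fold change of 0.34 came from edgeR (SE 0.30; p 0.283 before adjustment). It turned to -0.13 (SE 0.12) without overexpression 1 and was 0.05 (SE 0.19) with the GC offset. Without that library the 95% confidence interval narrowed from 0.783-fold to 2.06-fold to between 0.759-fold and 1.10-fold.

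NT5E encodes CD73 (ENSG00000135318, chromosome 6, 85449584 to 85495791), which makes adenosine and is also a marker of mesenchymal stromal cells. Controls 1, 2 and 3 lay close together at 14.96, 14.72 and 14.16 FPKM. Overexpression 1 and 2 were above all of them at 20.23 and 17.50 FPKM, and overexpression 3 was below all of them at 13.34 FPKM. The means were 14.6 ± 0.410 and 17.0 ± 3.47 FPKM (SD, n = 3 each). The log2 fold change of 0.17 (SE 0.12) had the smallest p of the members (unadjusted p 0.203 by edgeR) and was 0.04 (SE 0.11) without overexpression 1. With all libraries the 95% confidence interval reached from 0.925-fold to 1.36-fold. The fibroblast marker counts and the GC shift given above coincide with high NT5E and CD47 values in overexpression 1, which is 1 library. In overexpression 2, where NT5E was also above all controls, the fibroblast markers summed to 15.7 CPM, against 13.8 to 15.0 CPM in controls. What part the markers and the GC shift have in these values was not tested. In bulk RNA, more cells of a type and more RNA per cell cannot be told apart.

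ENTPD1 encodes CD39, the enzyme upstream of CD73 (ENSG00000138185, chromosome 10, 95711779 to 95869695). It was listed at 0 in control 2 and had 0.008009 and 0.01743 FPKM in control 1 and 3. Overexpression 1, 2 and 3 had 0.01457, 0.03478 and 0.01591 FPKM. These values stand on 0 to 32 counts, and control 3 exceeded 2 of the 3 overexpression libraries. ENTPD1-AS1, which overlaps it on the opposite strand, had 104 to 135 counts. EdgeR gave a log2 fold change of 1.202 with an SE of 1.01 (unadjusted p 0.271), with a 95% confidence interval from 0.446-fold to 11.9-fold. The log2 fold change of ENTPD1 was 1.43 (SE 1.10) without overexpression 1, and leaving out each library in turn moved it from 0.64 (without control 2) to 2.36 (without control 3). Across the 6 libraries the product-forming NT5E was thus measured at 13.34 FPKM or more and ENTPD1 at 0.03478 FPKM or less.

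NECTIN2 and PVR, the ligands shared by TIGIT and CD226, are both on chromosome 19. NECTIN2 (ENSG00000130202, 44846175 to 44889223) had 80.75, 79.31 and 75.57 FPKM in the 3 controls, against 75.49, 82.41 and 78.28 FPKM in overexpression 1, 2 and 3. Overexpression 1 was just below the controls and overexpression 2 just above them. The mean of NECTIN2 exceeded that of 95.7% of tested genes. A log2 fold change of -0.04 came from edgeR (SE 0.09; p 0.673 before adjustment), and one of 0.01 (SE 0.10) without overexpression 1. Its 95% confidence interval, from 0.845-fold to 1.12-fold, was the narrowest of the 9 members. PVR (ENSG00000073008, 44643798 to 44666162) had 8.078, 7.730 and 7.455 FPKM in the controls. Overexpression 1 and 3 were below these at 6.578 and 6.782 FPKM, and overexpression 2 was above them at 9.283 FPKM. EdgeR gave it a log2 fold change of -0.09 with an SE of 0.13 (unadjusted p 0.502), or 0.01 (SE 0.12) without overexpression 1. Among the 6 members above 1 FPKM, PVR had the lowest deviation in overexpression 1 (-0.33).

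**Figure D2:**
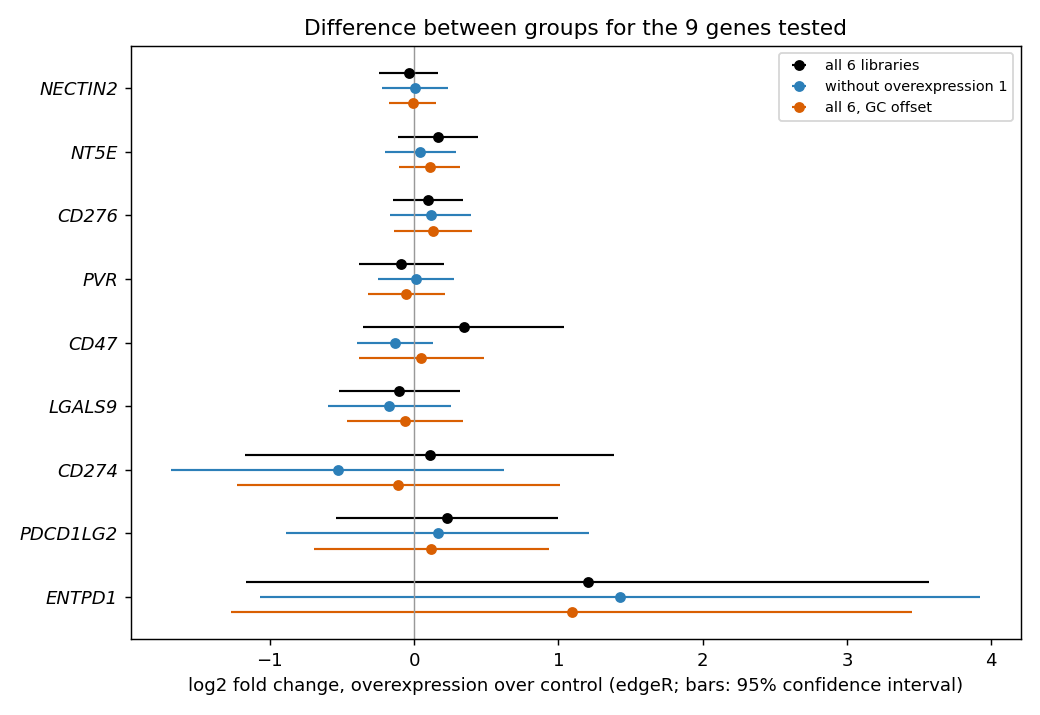
Log2 fold change of the 9 tested genes (horizontal axis, overexpression over control, edgeR) with 95% confidence intervals, for all 6 libraries (black), without overexpression 1 (blue) and with a GC offset (orange). Every interval includes 0. CD47 moves from 0.34 to -0.13 and CD274 from 0.11 to -0.53 when overexpression 1 is left out.

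LGALS9 encodes galectin-9 (ENSG00000168961, chromosome 17, 27629798 to 27649560). Controls 1, 2 and 3 had 2.656, 2.303 and 1.720 FPKM, and overexpression 1, 2 and 3 had 2.403, 2.192 and 1.836 FPKM, all within the control range. A log2 fold change of -0.10 came from edgeR (SE 0.18; p 0.584 before adjustment). It was -0.17 (SE 0.19) without overexpression 1 and turned to 0.05 (SE 0.18) without control 1, the library with the highest level. LGALS9B and LGALS9C are near-identical copies elsewhere on chromosome 17, and the way reads were divided among the copies is not given in the sources used here. The coding sequence of LGALS9 matched that of LGALS9B at 96.3% of aligned bases and that of LGALS9C at 95.9%. Of its 994 stretches of 75 bases, 3.22% occurred unchanged in transcripts of each copy. The following 90 coding bases (GENCODE 29, GRCh38) are the stretch within an exon where the copies differ most, at chr17:27640627-27640716 on the plus strand for LGALS9, chr17:20458240-20458329 on the minus strand for LGALS9B and chr17:18485989-18486078 on the plus strand for LGALS9C. Capitals mark the 8 positions at which the sequences are not all alike.
LGALS9: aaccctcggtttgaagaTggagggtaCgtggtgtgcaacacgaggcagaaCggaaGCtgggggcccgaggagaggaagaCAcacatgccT
LGALS9B: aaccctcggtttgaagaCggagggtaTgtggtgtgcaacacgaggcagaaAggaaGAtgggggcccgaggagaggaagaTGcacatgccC
LGALS9C: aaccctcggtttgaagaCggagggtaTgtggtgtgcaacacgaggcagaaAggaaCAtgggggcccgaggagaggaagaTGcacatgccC

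The LGALS9B row went a different way from LGALS9. It had 0.6984, 0.5859 and 0.7842 FPKM in the 3 controls, against 1.007, 1.034 and 1.071 FPKM in overexpression 1, 2 and 3, so its groups did not overlap. With edgeR the log2 fold change came to 0.54 (SE 0.21; p 0.0368 unadjusted and 0.994 adjusted), and it was 0.58 without overexpression 1. Counted together, the rows of LGALS9, LGALS9B and LGALS9C summed to 16.8 ± 3.15 CPM in the controls and 17.0 ± 1.55 CPM under overexpression (SD over 3 libraries per group; exact 2-sided permutation p 0.9). The LGALS9B row took 10.3%, 10.3% and 17.1% of those counts in the 3 controls, against 15.8%, 17.6% and 20.3% in overexpression 1, 2 and 3. That share overlapped between the groups (exact 2-sided permutation p 0.2; the smallest p that 3 against 3 allows is 0.1).

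Members differed in the base composition of their mRNA, and so did their deviations in overexpression 1. GC content was 38.4% in CD47, 40.9% in CD274, 41.9% in PDCD1LG2, 42.6% in ENTPD1, 44.4% in VTCN1 and 45.2% in NT5E. It was 54.0% in LGALS9, 56.5% in PVR, 59.4% in NECTIN2 and 61.0% in CD276. These are contents of the longest annotated transcript in GENCODE 29. Over all tested genes the median FPKM was higher in each successive GC class, from 0.3947 under 40% to 4.849 at 60% or more. CD47, NT5E, LGALS9, PVR, NECTIN2 and CD276 lay above the median of their class, and CD274, PDCD1LG2, ENTPD1 and VTCN1 below it. The deviation of overexpression 1 was 1.04 for CD47, where the median of its GC class was 0.64. It was 1.14 for CD274 and 0.26 for PDCD1LG2, beside a class median of 0.24, and 0.36 for NT5E, beside 0.05. For LGALS9, PVR, NECTIN2 and CD276 the deviations were 0.10, -0.33, -0.15 and 0.01, beside class medians of -0.06, -0.07, -0.07 and -0.10. What part GC content has in these levels and deviations was not tested.

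To show this difference in composition, 120 coding bases are given for 2 members low in GC and 2 members rich in it, each being the stretch within an exon whose GC content is nearest to that of the whole coding sequence. Capitals mark G and C. Positions are chr3:108080090-108080209 on the minus strand for CD47 (39.2% GC), chr9:5457164-5457283 on the plus strand for CD274 (44.2%), chr19:44865329-44865448 on the plus strand for NECTIN2 (62.5%) and chr15:73702255-73702374 on the plus strand for CD276 (64.2%), in GRCh38 with GENCODE 29.
CD47: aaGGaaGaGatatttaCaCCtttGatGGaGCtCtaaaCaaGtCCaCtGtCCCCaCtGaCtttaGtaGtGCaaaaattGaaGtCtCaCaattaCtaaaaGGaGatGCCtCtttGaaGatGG
CD274: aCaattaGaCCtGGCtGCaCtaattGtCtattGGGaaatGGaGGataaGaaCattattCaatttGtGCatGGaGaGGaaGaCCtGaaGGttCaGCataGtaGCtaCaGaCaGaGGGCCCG
NECTIN2: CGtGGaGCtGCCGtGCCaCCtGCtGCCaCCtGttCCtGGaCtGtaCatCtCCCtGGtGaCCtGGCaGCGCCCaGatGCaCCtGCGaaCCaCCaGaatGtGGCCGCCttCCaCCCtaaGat
CD276: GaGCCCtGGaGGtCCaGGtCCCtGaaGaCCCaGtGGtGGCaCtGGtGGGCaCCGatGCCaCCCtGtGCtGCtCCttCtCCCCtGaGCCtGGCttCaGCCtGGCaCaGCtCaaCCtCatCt

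**Figure D3:**
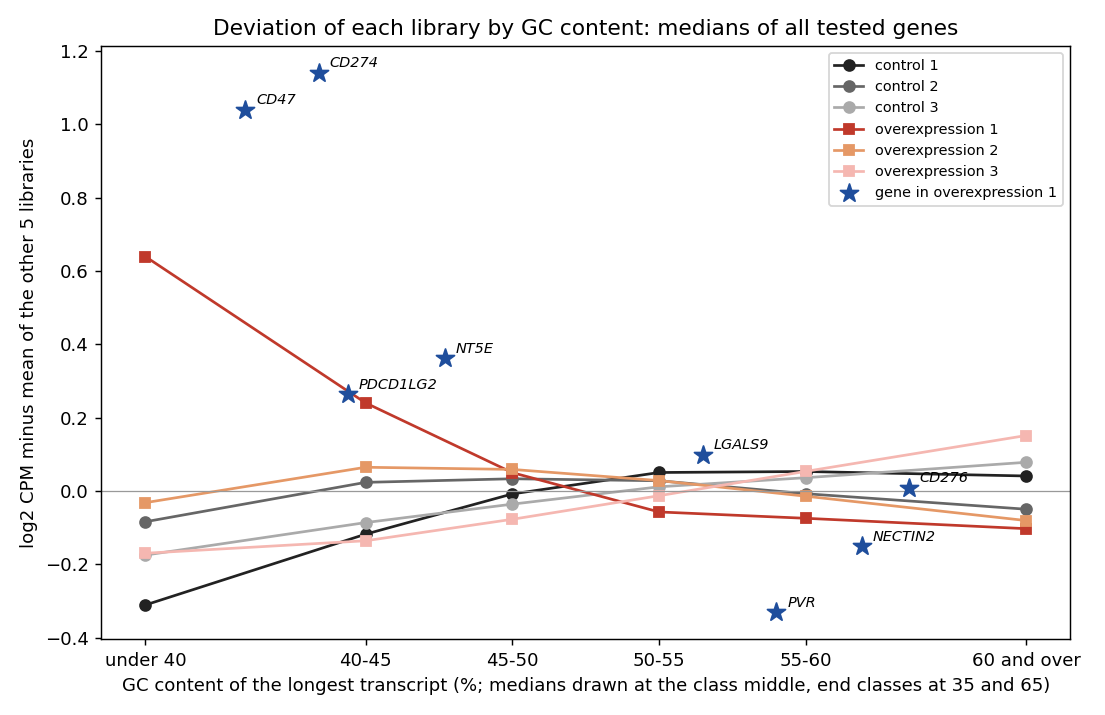
Deviation of each library from the remaining 5 (log2 CPM, vertical axis) by the GC content of the gene (horizontal axis). Lines are medians of all tested genes per GC class, and stars are 8 of the members in overexpression 1. The median of overexpression 1 falls from 0.64 under 40% GC to -0.10 at 60% or more, and CD47 and CD274 lie above 1.0.

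**Figure D4:**
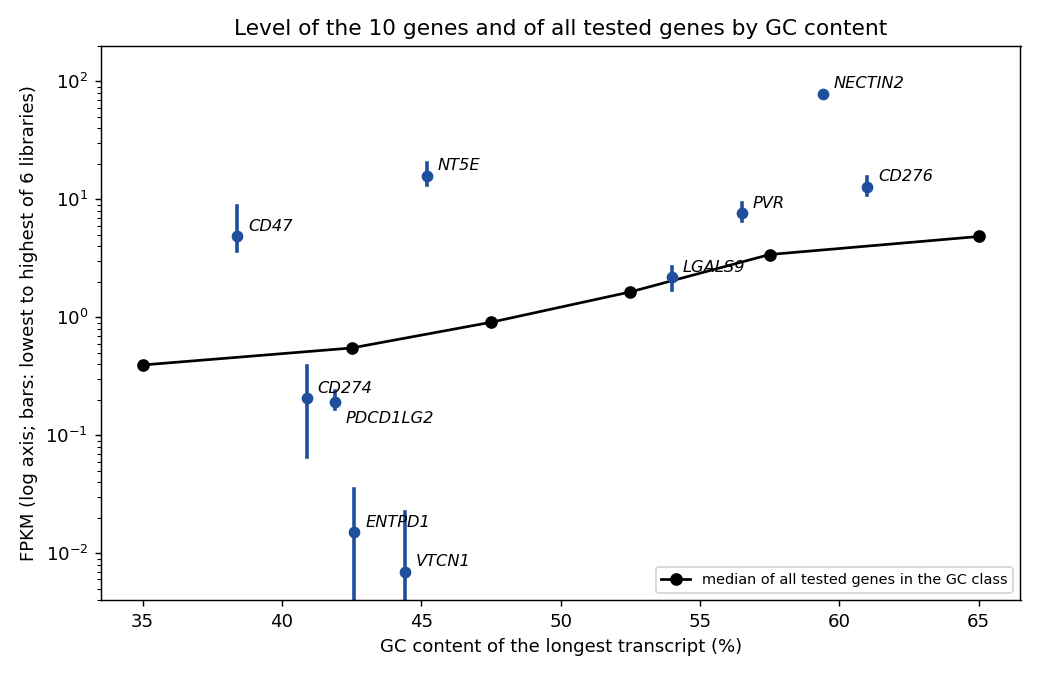
FPKM (vertical log axis) of the 10 genes against the GC content of their longest transcript, with bars from the lowest to the highest of the 6 libraries (cut at the lower edge where a library is at 0). The black line joins the medians of all tested genes per GC class, from 0.3947 to 4.849 FPKM. NECTIN2 stands highest at 78.63 FPKM, and CD274 and PDCD1LG2 lie below the line.

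Other genes of these pathways were read from lists by role. Of 156 such genes 123 were measured and 107 could be tested; 0 of the 107 passed the test in either direction, as in the background. An unadjusted p under 0.05 was reached by 2.8% of them, against 3.83% of all tested genes. Groups did not overlap for 5 of them (4.67%, against 8.22%): SIRPA, CD38, ADA, ADORA1 and LGALS9B. Their median log2 fold change was -0.02, and it was -0.02 without overexpression 1 as well.

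Among other B7 and butyrophilin genes, 8 were tested, 2 had a positive log2 fold change and 0 passed. VSIR, which encodes the checkpoint protein VISTA, had 5.194 to 7.016 FPKM, well above CD274, and a log2 fold change of -0.04 (SE 0.13). BTN2A1, a butyrophilin involved in the recognition of phosphoantigens by γδ T cells, had 4.112 to 5.631 FPKM and 0.03 (SE 0.12). BTN3A2 and BTN3A3 had log2 fold changes of 0.21 and -0.23, which were 0.14 and -0.18 without overexpression 1. Of 7 TNF-family and other costimulatory genes tested, 0 passed. TNFSF9 (4-1BB ligand), a costimulatory ligand of T cells, had 47.23 to 54.42 FPKM and a log2 fold change of -0.05 (SE 0.08). CD40, a receptor of the TNF family, had 10.79 to 11.74 FPKM, and CD70, the ligand of CD27, had 0.09849 to 0.3947 FPKM with its lowest value in overexpression 3. CD58, the ligand of CD2, followed the pattern of CD47, with 10.95 FPKM in overexpression 1 and 2.911 to 3.418 FPKM elsewhere. Its log2 fold change of 0.84 fell to 0.06 without that library and was 0.696 with the GC offset.

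NECTIN3 (GC content 38.9%) also stood out in overexpression 1, where the median deviation of tested genes under 40% GC was 0.64. It had 1.957 FPKM there and 0.2118 to 0.4040 FPKM elsewhere. Its log2 fold change of 1.10 (SE 0.74) turned to -0.47 without that library and was 0.70 with the GC offset. NECTIN1 had 0.24 (SE 0.20) at 0.3736 to 0.6337 FPKM, and CADM4, a nectin-like adhesion molecule, had 2.718 to 3.695 FPKM. Of the 4 other nectin and nectin-like genes tested, 0 passed.

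In the CD47 pathway 8 genes were tested and 0 passed. SIRPA, the receptor of CD47, was low in these cancer cells themselves, at 0.1171 to 0.2096 FPKM in control and 0.07918 to 0.1008 FPKM in overexpressing libraries. With edgeR the log2 fold change came to -0.78 (SE 0.35; p 0.0569 unadjusted and 0.994 adjusted), and -0.67 without overexpression 1. QPCTL, the enzyme that modifies CD47 so that SIRPα can bind, had 39.32 to 46.59 FPKM and a log2 fold change of -0.13 (SE 0.13). CALR, a signal for phagocytosis when exposed on the surface, had 700.6 to 890.1 FPKM and -0.02 (SE 0.12), which turned to 0.06 without overexpression 1. THBS1, a secreted ligand of CD47, had 22.63 FPKM in overexpression 1, 16.43 in overexpression 2 and 10.59 to 12.72 in the other 4 libraries. Its log2 fold change was 0.36 (SE 0.21), or 0.09 without overexpression 1.

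Of 19 other genes of adenosine metabolism tested, 0 passed and 8 had a positive log2 fold change. CD38, an ectoenzyme that consumes NAD and feeds another route to adenosine, had 0.01925, 0.008726 and 0.01393 FPKM in control 1, 2 and 3. In overexpression 1, 2 and 3 it had 0.05554, 0.09241 and 0.04920 FPKM, all above the controls and all very low. With edgeR the log2 fold change came to 2.12 (SE 0.495; p 0.00328 unadjusted and 0.994 adjusted) and 2.24 without overexpression 1. ADA, which degrades adenosine to inosine, had 1.116, 1.136 and 1.347 FPKM in control and 1.010, 0.9151 and 0.9200 FPKM in overexpressing libraries, which did not overlap. With edgeR the log2 fold change came to -0.39 (SE 0.145; p 0.0312 unadjusted and 0.994 adjusted) and -0.415 without overexpression 1. AHCY, which releases adenosine inside the cell, had 350.4 to 511.3 FPKM, and AK1, an adenylate kinase, 79.83 to 91.83 FPKM. Of the adenosine receptors, ADORA2B had 10.53 to 14.42 FPKM and a log2 fold change of 0.05 (SE 0.11). The ADORA2A row had 8.452 to 8.837 FPKM in control and 0.6717, 10.21 and 0.6678 FPKM in overexpression 1, 2 and 3, with 2 libraries far below and 1 above all controls. The log2 fold change of ADORA2A was -1.26 (SE 0.96), or -0.76 without overexpression 1.

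Regulators of PD-L1 gave 17 positive log2 fold changes of 36 tested, with a median of -0.00, and 0 passed. CMTM6, which keeps PD-L1 at the cell surface, had 5.221 FPKM in overexpression 1 and 1.043 to 1.751 FPKM elsewhere. HIF1A, the hypoxia factor that can raise CD274 transcription, had 17.13 FPKM there and 2.753 to 4.268 FPKM elsewhere. Their log2 fold changes of 0.99 and 1.28 were 0.14 and 0.16 without that library. Over all 6 libraries with the GC offset they were 0.691 and 0.815. GC content was 39.4% in CMTM6 and 36.4% in HIF1A, in the class with a median deviation of 0.64 in overexpression 1. CDK4 and STUB1, whose products act on PD-L1 stability, had the highest levels of the list, with log2 fold changes of -0.01 (SE 0.07) and -0.07 (SE 0.17).

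Of 22 other inhibitory or recognition ligands tested, 0 passed and 9 had a positive log2 fold change. HLA-E, a ligand of the inhibitory receptor NKG2A, had 316.0 to 363.5 FPKM and -0.12 (SE 0.10). LGALS1, a galectin that can kill activated T cells, had 2300.0 to 2933 FPKM and -0.06 (SE 0.15). MICB, a stress ligand of NKG2D, had 30.01 to 33.13 FPKM in control and 27.77 to 30.57 FPKM in overexpressing libraries, with a log2 fold change of -0.17 (SE 0.08, unadjusted p 0.0616, adjusted p 0.994 by edgeR).

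For the 6 members above 1 FPKM the pattern over the 6 libraries was compared with 7180 protein-coding genes, as the root-mean-square difference of centred log2 CPM. The nearest genes were DKK1 (0.0514) and CCNI (0.0582) for CD47, and NIPA2 (0.0341) and CREG1 (0.0351) for NT5E. For NECTIN2 they were NAGPA and TOLLIP, for PVR GNA11 and COL13A1, for CD276 GATA6 and ATP13A1, and for LGALS9 KDELR3 and LMO4, at 0.0159 to 0.0493. Within 0.1 of CD47 lay 28 genes and within 0.1 of NECTIN2, whose pattern was nearly flat, 1720. With 6 libraries and this many genes, some lie close to any pattern.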

How the data were processed

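Expected counts and FPKM for each gene in 6 libraries were deposited by the authors in a single table. Per the submitters' processing notes, cutadapt 1.9, HISAT2 2.0.4, StringTie 1.3.4d and edgeR were used with the build hg38; read length, annotation release and strandedness are not given in the sources used here. The deposited expected counts are whole numbers that differ in total between libraries. Being estimates, they were given no counting interval. The deposited FPKM values were scaled by the authors to transcript length and mapped fragments, as the unit's name says.

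Genes were tested with edgeR 4.0.16 (R 4.3.3; quasi-likelihood test, TMM scaling, filterByExpr with a minimum count of 10, group as the only term, 2-sided). Benjamini-Hochberg adjustment ran over 15951 genes, with a threshold of 0.05. Means and SDs are of FPKM, unless CPM is named. Summed CPM values use the unadjusted library total, and log2 CPM values use the TMM-adjusted one. Totals of 54371226 to 74586916 counts limit the precision of rows with few counts. The SE was derived from the edgeR test as the absolute log2 fold change divided by the square root of the F statistic. The 95% confidence intervals use that SE with a t quantile on the total degrees of freedom of the fit. Both are approximations. GC content was available for 96.2% of tested genes; the GC offset is a lowess curve per library with a span of 0.3. Sequences were aligned with Biopython 1.88, and permutation tests were made with SciPy 1.17.1.

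Members and gene lists were chosen with earlier results of these data known. Besides the members, each list contributes up to 2 genes by smallest p and up to 2 by highest mean FPKM, with the genes most like a member and the rows overlapping one. Any other gene was named after its values were seen. Alternatives were scaling by RLE or upper quartile, testing without the filter, counts divided by 4, DESeq2 1.42.0, limma 3.58.1 on log2 FPKM (mean of 1 or more) with a pseudocount of 1 or 0.1, the replicate block, and each library left out. The GC offset was chosen after seeing the data.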

Additional observations from a re-analysis of the deposited data

How the results depend on the processing

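None of the 9 tested members passed under any of the 16 alternatives run, of which limma covered the 6 above 1 FPKM and the counts divided by 4 could not test PDCD1LG2 or ENTPD1, and 122 of 136 alternative values of single members kept their direction. Over all genes, edgeR passed 0 genes (611 at an unadjusted p under 0.05), limma passed 0 and DESeq2 passed 14; leaving out each library gave 0 to 4, with 4 without overexpression 1 and 2 without overexpression 2, and the GC offset without overexpression 1 gave 3. Leaving out each library in turn moved the log2 fold change from -0.53 to 0.51 for CD274, from -0.13 to 0.55 for CD47, from -0.21 to 0.014 for PVR, from -0.10 to 0.0072 for NECTIN2, from -0.24 to 0.048 for LGALS9 and, with no change of sign, from 0.64 to 2.36 for ENTPD1. CD274 was also negative with the replicate block (-0.10) and the GC offset (-0.11). Leaving out each library moved NT5E from 0.043 to 0.27, CD276 from 0.026 to 0.16 and PDCD1LG2 from 0.11 to 0.39, with no change of sign. Only without overexpression 3 did a member, NT5E, have an unadjusted p under 0.05 (0.0283 by edgeR). In that setting 1837 of 16288 tested genes did. NECTIN2 was at 0.0030 with limma at either pseudocount. With the GC offset and without overexpression 1, values were -0.60 for CD274, -0.19 for CD47, 0.032 for PVR and 0.015 for NECTIN2. Apart from the settings' own construction, the cause was not tested. The replicate numbers share no stated origin: same-numbered libraries correlated at -0.0316, 0.0354 and 0.0746 in their deviations from the group means, and the block called 0 genes (438 at an unadjusted p under 0.05). CD274, PDCD1LG2, ENTPD1 and VTCN1 rest on at most 127 counts in a library, and the SE of the 3 tested ones (0.33 to 1.01) exceeded that of the other 6 members tested.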
